A study of Homo sapiens with 15 samples.

Results

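The genes of the mitochondrial genome were the 37 rows whose symbol began with MT-, out of 60107 genes listed for each library. They comprised 13 mRNA genes, 2 rRNA genes and 22 tRNA genes. RNA was sequenced from MIA PaCa-2 cells, an established line from a human pancreatic carcinoma, in 15 libraries of 5 groups with 3 libraries each. The cells were given vehicle (labelled Ctrl), Lys05, BAQ12, BAQ13 or BAQ12O for 24 h, each agent at 5 µM. Lys05 is a dimeric form of chloroquine that accumulates in lysosomes and blocks autophagy. BAQ12 and BAQ13 are bisaminoquinoline hybrids of Lys05 with a lysosomal detergent, they assemble into nanoparticles in water, and BAQ13 is longer than BAQ12 by a single methylene unit. The series text lists the last group as 12O, and the sources used here do not describe its structure. All groups are the same cell line at a single dose and a single time, and nothing in the labels says that the 3 libraries of a group came from separate cultures, so the p-values measure only the spread between these libraries, which may be technical.

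The mitochondrial genome is a small circle that is read from promoters in its control region into long transcripts of each strand. The transcript of the heavy strand carries both rRNAs, most mRNAs and most tRNAs, and the transcript of the light strand carries the mRNA MT-ND6 and the remaining tRNAs. The tRNAs lie between the larger genes like punctuation, and their excision releases the mRNAs and rRNAs. The mRNAs encode subunits of respiratory complexes I, III and IV and of the ATP synthase (complex V), and the rRNAs form the mitochondrial ribosome that translates them. In the annotation, transcripts of the heavy strand lie on the plus strand (12 mRNAs, 2 rRNAs and 14 tRNAs) and those of the light strand on the minus strand (MT-ND6 and 8 tRNAs).

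The 6 tRNAs below are shown because the tRNA results turn on them. The first 3 flank the rRNA genes on the plus strand, and the last 3 are neighbours on the minus strand. Sequences are the GENCODE 29 transcripts (GRCh38), written 5′ to 3′ in the DNA alphabet, and capitals mark the anticodon. MT-TF (phenylalanine, chrM:577-647) precedes MT-RNR1, MT-TV (valine, chrM:1602-1670) lies between the 2 rRNA genes, and MT-TL1 (leucine, chrM:3230-3304) follows MT-RNR2. MT-TC (cysteine, chrM:5761-5826), MT-TY (tyrosine, chrM:5826-5891) and MT-TS1 (serine, chrM:7446-7514) are read from the minus strand.
MT-TF: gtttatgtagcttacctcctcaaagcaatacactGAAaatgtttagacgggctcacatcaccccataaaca
MT-TV: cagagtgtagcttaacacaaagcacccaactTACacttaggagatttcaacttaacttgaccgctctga
MT-TL1: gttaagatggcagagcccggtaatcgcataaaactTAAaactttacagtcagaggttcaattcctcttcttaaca
MT-TC: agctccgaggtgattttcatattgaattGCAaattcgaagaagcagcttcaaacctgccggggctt
MT-TY: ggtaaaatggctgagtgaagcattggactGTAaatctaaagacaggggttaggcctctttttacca
MT-TS1: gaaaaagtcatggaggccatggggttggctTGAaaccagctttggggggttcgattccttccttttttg

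MT-TC and MT-TY are of equal length, 66 bases, and share a single base, yet their values parted in the libraries given Lys05. The mRNA genes MT-ATP8 and MT-ATP6 share 46 bases, which are printed in capitals with 20 flanking bases on each side (chrM:8507-8592, plus strand), because reads from this stretch cannot be assigned to either gene.
MT-ATP8 and MT-ATP6: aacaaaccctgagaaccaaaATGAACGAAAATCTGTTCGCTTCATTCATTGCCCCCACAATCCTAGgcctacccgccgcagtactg
MT-ND4L and MT-ND4 share 7 bases and MT-ATP6 and MT-CO3 a single base, and MT-TI and MT-TQ share 3 bases on opposite strands. Whether reads were counted by strand is not stated, so reads from a gene and from the RNA opposite it cannot be told apart. Reads on a tRNA gene may come from the free tRNA or from a longer transcript not yet cut. These counts do not tell the free and the uncut form apart. Near-identical nuclear copies drew few reads by comparison, 1339 to 2499 a library over 189 such genes, and the sharing of reads with them is uncertain.

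The libraries held 1586566 to 2500551 reads on genes, of which 15.8% to 20.6% fell on the mitochondrial genome. Values are normalised counts, meaning reads divided by the size factor of the library, and 3 reads correspond to 2.49 to 4.14 normalised counts. All 15 libraries held the line's markers KRT8, KRT18, KRT19 and VIM, whereas EPCAM and CDH1 had at most 1 and 5 reads. CDKN2A, deleted in this line, had 0 reads, as had 4 of 5 markers of acinar and islet cells, and 4 immune markers had at most 6 reads each. Of 4 fibroblast markers, COL1A2 stood at 148 to 252 normalised counts while DCN and LUM were at 0. In bulk RNA, fewer mitochondrial genomes and less RNA from each cannot be told apart. The labels name a 3′ kit and the methods a stranded kit. A change in counts may therefore also reflect which RNA molecules of a gene were captured, and this was not tested.

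A pair of libraries stood apart, BAQ12 replicate 3 and BAQ13 replicate 1. BAQ12 replicate 3 differed from its replicates by 0.67 on the log2 scale (root mean square over genes), against 0.31 to 0.46 for the other 14 libraries, and its deviations correlated with those of BAQ13 replicate 1 across genes (r = 0.57, genes not being independent). By the first measure BAQ13 replicate 1, at 0.42, lay within the range of the other libraries. It was set beside BAQ12 replicate 3 for the correlation and for single genes. MT-TF stood at 18557 and 15305 normalised counts in the pair and at 8538 to 10869 in the other libraries of both groups, whereas MT-TC stood at 139 in BAQ12 replicate 3 and at 316 and 326 in its replicates. Both libraries were kept, and results are given with and without them where this changes a call. The cause of their difference was not tested. Fits without them were chosen after the data were seen and are no independent evidence. Between groups that hold neither library, such a fit changes the estimate of the spread but not the fold change.

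Each of the 4 agents was compared with vehicle to ask how it changed the transcriptome, and the mitochondrial genes split by class in every comparison. The 12 plus-strand mRNAs fell with every agent, although with BAQ12O only 9 of them passed the test given below. MT-RNR1 with its neighbouring tRNAs MT-TF and MT-TV rose, and on the minus strand MT-ND6 and MT-TC rose. With Lys05, 19 mitochondrial genes passed the test (adjusted p under 0.05, limma on log2 of the normalised count plus 1, adjusted over 10495 genes), 6 higher and 13 lower. Over all genes tested, 0.238% passed with Lys05, 0.0762% higher and 0.162% lower, and 19 of its 25 called genes were mitochondrial. That share rested on the libraries fitted, since it was 23 of 51 without BAQ12 replicate 3, which is no part of this comparison, and 26 of 115 with only the 6 libraries compared. With BAQ12, 5 members were higher and 13 lower, against 0.572% and 0.410% of all genes. With BAQ13, 6 were higher and 15 lower, against 3.58% and 2.19%, and with BAQ12O 6 were higher and 9 lower, against 0.934% and 0.543%.

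Of the 37 genes, 33 passed the filter on low counts, and all 4 that did not were tRNA genes. MT-TN and MT-TK had no read in any library, MT-TW had at most 2 and MT-TD at most 5. Without BAQ12 replicate 3 and BAQ13 replicate 1, 9 members were higher and 17 lower with Lys05 (0.467% and 0.457% of all genes), 8 and 16 with BAQ12 (1.21% and 0.905%), 9 and 19 with BAQ13 (6.47% and 5.50%), and 11 and 12 with BAQ12O (4.54% and 4.75%). No member called with all 15 libraries was lost, and calls over all genes rose as well, with Lys05 from 25 to 97, of which 26 were mitochondrial. The changes by gene order are plotted along the genome.

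**Figure D1:**
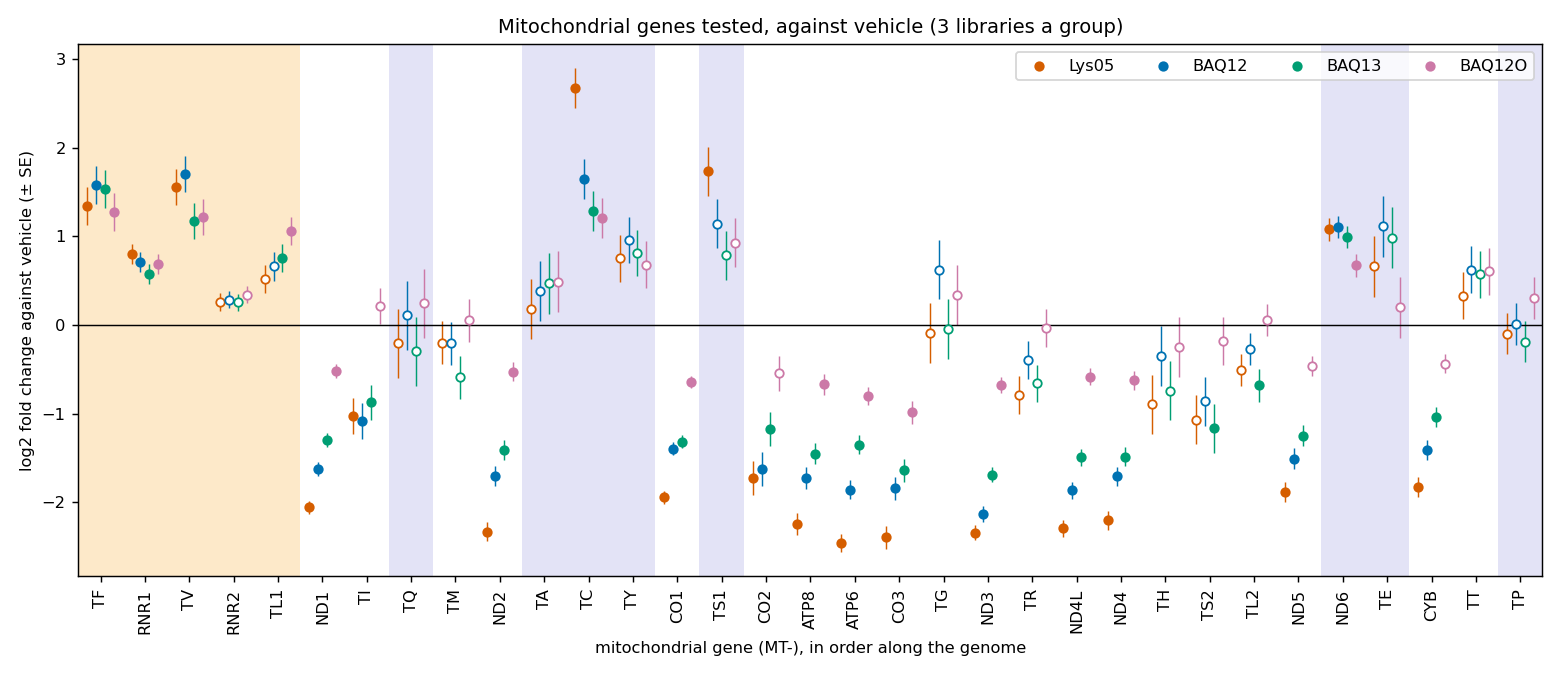
log2 fold change against vehicle (vertical axis, bars are standard errors, n = 3 libraries a group) of the 33 mitochondrial genes tested, in order along the genome. Filled points passed the adjusted threshold and open points did not. The orange ground marks both rRNA genes with their 3 tRNAs, the violet ground the minus strand and the white ground the remaining plus strand, where the 12 mRNAs lie below 0 for all 4 agents and lowest for Lys05.

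The 12 plus-strand mRNAs were below every vehicle library in every treated library, with each of the 4 agents. Such separation below vehicle was seen for 7.37% of all genes with Lys05, 7.61% with BAQ12, 14.4% with BAQ13 and 13.3% with BAQ12O. All 12 passed the test with Lys05, BAQ12 and BAQ13, and 9 of 12 did with BAQ12O. Their median log2 fold change was -2.23 with Lys05 (range -2.46 to -1.73), -1.71 with BAQ12 (-2.13 to -1.39), -1.38 with BAQ13 (-1.69 to -1.04) and -0.61 with BAQ12O (-0.99 to -0.44), beside medians over all genes of 0.0018, -0.0014, -0.0042 and -0.0038. As group means, normalised counts were 18.2% to 30.2% of those with vehicle for Lys05, 22.8% to 38.1% for BAQ12, 31.1% to 48.7% for BAQ13 and 50.4% to 74.4% for BAQ12O.

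MT-ATP6, which encodes the proton channel subunit of the ATP synthase, had the largest decrease with Lys05. Its normalised counts were 14683, 14288 and 13967 in the vehicle libraries, 2482, 2636 and 2687 with Lys05, 3477, 3768 and 4688 with BAQ12, 5557, 5305 and 5993 with BAQ13 and 7769, 7373 and 9623 with BAQ12O. The 5 groups did not overlap, and the order from the lowest was Lys05, BAQ12, BAQ13, BAQ12O and vehicle. The group means were 14313 ± 358 (SD, n = 3) for vehicle and 2602 ± 107 (SD, n = 3) for Lys05. The log2 fold change was -2.46 (SE 0.10, adjusted p = 3.9e-11) with Lys05, -1.86 (SE 0.10, adjusted p = 4e-09) with BAQ12, -1.35 (SE 0.10, adjusted p = 1.6e-07) with BAQ13 and -0.80 (SE 0.10, adjusted p = 0.0005) with BAQ12O.

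MT-ATP8, the other ATP synthase gene of this genome, overlaps MT-ATP6 in the stretch printed above. Its normalised counts were 20371, 21229 and 20094 in the vehicle libraries, 4087, 4480.1 and 4436 with Lys05, 5325, 5727 and 7863 with BAQ12, 8839.7, 7116 and 6719 with BAQ13 and 12635, 12359.8 and 13839 with BAQ12O. BAQ12 replicate 3 lay inside the range of BAQ13, and the vehicle libraries stood above all others. The log2 fold changes were -2.25, -1.73, -1.45 and -0.67 for Lys05, BAQ12, BAQ13 and BAQ12O, each with a standard error of 0.12.

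Complex I, the NADH dehydrogenase, takes 6 plus-strand mRNAs. Their log2 fold changes ran from -2.34 (MT-ND3) to -1.89 (MT-ND5) with Lys05, from -2.13 (MT-ND3) to -1.51 (MT-ND5) with BAQ12 and from -1.69 (MT-ND3) to -1.25 (MT-ND5) with BAQ13, so that MT-ND3 was lowest and MT-ND5 least low with all 3. MT-ND3 stood at 9729.5, 10324 and 10062 in the vehicle libraries, 1969, 2041 and 1921 with Lys05, 2315, 2407 and 2143 with BAQ12, 2869, 3063 and 3435 with BAQ13 and 5875, 5857 and 7175 with BAQ12O. Lys05 and BAQ12 were close here, with a difference that did not pass the test, and BAQ12O stood apart from both. MT-ND2 stood at 9324, 9403 and 9099.5 in the vehicle libraries, 1744, 1875 and 1909 with Lys05, 2442, 2657 and 3558 with BAQ12, 3935, 3408 and 3149 with BAQ13 and 6377, 6203 and 6738 with BAQ12O. Its decrease with BAQ12O, -0.53 (SE 0.11, adjusted p = 0.018), lost the threshold on leaving out any of the 6 libraries compared (adjusted p = 0.054 to 0.096).

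MT-ND4L and MT-ND4, which share an RNA, moved side by side. MT-ND4L stood at 2673, 2788 and 2836 in the vehicle libraries, 519, 572 and 599 with Lys05, 709.9, 707 and 868 with BAQ12, 1019.9, 929 and 997 with BAQ13 and 1671, 1794 and 2083 with BAQ12O. MT-ND4 stood at 20419, 20466 and 19620.0 in the vehicle libraries, 4181, 4394 and 4533 with Lys05, 5465, 5676 and 7583 with BAQ12, 7947, 6783 and 6933 with BAQ13 and 12842, 12005 and 14476 with BAQ12O. The log2 fold changes of the pair were -2.30 and -2.21 with Lys05, -1.87 and -1.71 with BAQ12, -1.49 and -1.49 with BAQ13, and -0.59 and -0.63 with BAQ12O. MT-ND1, the first mRNA after the rRNA genes, had log2 fold changes of -2.06, -1.62, -1.30 and -0.52 in the same order of agents. MT-ND5, near the end of the heavy-strand transcript, had -1.89, -1.51, -1.25 and -0.46, of which the last did not pass the test (adjusted p = 0.056).

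Complex IV, the cytochrome c oxidase, takes MT-CO1, MT-CO2 and MT-CO3. MT-CO3 stood at 14556, 13987 and 13901 in the vehicle libraries, 2609.8, 2623 and 2827 with Lys05, 3297, 3509.7 and 5318 with BAQ12, 5162, 4472 and 4038 with BAQ13 and 7042, 7180.0 and 7187 with BAQ12O. It had the largest decrease of any mitochondrial gene with BAQ12O, -0.99 (SE 0.13, adjusted p = 0.0005). MT-CO2 was the least changed of the 12 with Lys05, -1.73 (SE 0.19, adjusted p = 5.6e-05), and had -0.55 (SE 0.19, adjusted p = 0.21) with BAQ12O. Its standard error was the largest of the 12, and its BAQ12 libraries stood at 1896, 1633 and 901. Without BAQ12 replicate 3 and BAQ13 replicate 1, its decrease with BAQ12O passed the test (-0.55, adjusted p = 9.9e-10), as did those of MT-ND5 (-0.46, adjusted p = 1.2e-10) and MT-CYB (-0.44, adjusted p = 2.2e-07). Neither library belongs to the groups compared, so only the estimate of the spread changed.

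MT-CYB encodes cytochrome b, the mitochondrially encoded subunit of complex III, and lies last among the mRNAs. Its log2 fold change was -1.83 with Lys05, -1.41 with BAQ12 and -1.04 with BAQ13, the smallest decrease of the 12 with BAQ13. With BAQ12O it was -0.44 (SE 0.11, adjusted p = 0.064), from 6279, 6186 and 7901 normalised counts against 9236, 9259 and 8877 with vehicle. The groups did not overlap, although the difference missed the threshold.

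**Figure D2:**
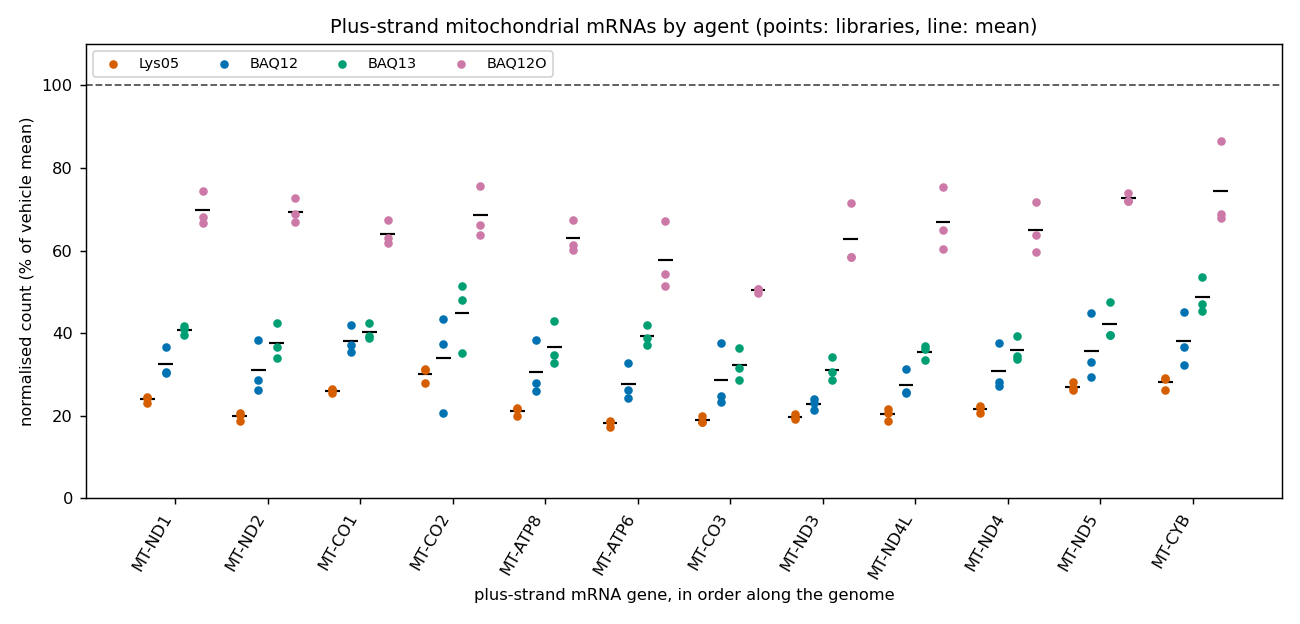
Normalised count of the 12 plus-strand mRNAs as a percentage of the vehicle mean (dashed line at 100), in order along the genome. Points are libraries (3 for each agent) and short lines are means. For all 12 genes the means rise from Lys05 through BAQ12 and BAQ13 to BAQ12O.

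In contrast to the mRNAs, both rRNA genes and the 3 tRNAs beside them lay above every vehicle library in every treated library, with each agent. Such separation above vehicle was seen for 8.24% of all genes with Lys05, 7.75% with BAQ12, 14.5% with BAQ13 and 12.5% with BAQ12O. MT-RNR1, the RNA of the small ribosomal subunit, MT-TF and MT-TV passed the test with all 4 agents. MT-TL1 passed it with BAQ13 and BAQ12O, and MT-RNR2, the RNA of the large subunit, with no agent.

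MT-RNR1 stood at 59459, 63994 and 60474 in the vehicle libraries, 106532, 107058 and 107878 with Lys05, 86926, 90975 and 127659 with BAQ12, 99199.5, 88789 and 87096 with BAQ13 and 95020.3, 94217 and 106709 with BAQ12O. The highest library was BAQ12 replicate 3, and the lowest treated library was above the highest vehicle library. The log2 fold change was 0.81 (SE 0.11, adjusted p = 0.0011) with Lys05, 0.71 (SE 0.11, adjusted p = 0.0023) with BAQ12, 0.58 (SE 0.11, adjusted p = 0.0044) with BAQ13 and 0.68 (SE 0.11, adjusted p = 0.0033) with BAQ12O. With no filter on low counts, none of the 4 passed (adjusted p = 0.089 to 0.10), and with only the 6 libraries compared BAQ12 did not either (adjusted p = 0.18). MT-RNR2 stood at 162535, 171087 and 163647 in the vehicle libraries, 194413, 200515 and 200408 with Lys05, 182816, 188179 and 240359.7 with BAQ12, 212809.7, 190715 and 190904 with BAQ13 and 206181, 200342 and 225427 with BAQ12O. Treated libraries were above vehicle, with log2 fold changes of 0.26, 0.29, 0.26 and 0.34, and adjusted p = 0.83, 0.25, 0.15 and 0.11. Without BAQ12 replicate 3, MT-RNR2 passed with Lys05 (adjusted p = 0.045), BAQ13 (0.0047) and BAQ12O (0.00064), but not with BAQ12 (0.16, adjusted p = 0.42).

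MT-TF, the tRNA that opens the heavy-strand transcript, stood at 3959, 3944 and 3725 in the vehicle libraries, 9237, 9879.8 and 10367 with Lys05, 8538, 9902 and 18557 with BAQ12, 15305, 10869 and 8588 with BAQ13 and 8965, 9709 and 9430.1 with BAQ12O. Its highest libraries were BAQ12 replicate 3 and BAQ13 replicate 1, and the lowest treated library, at 8538, stood above the highest vehicle library. The log2 fold change was 1.34 (SE 0.21, adjusted p = 0.0042) with Lys05, 1.58 (SE 0.21, adjusted p = 0.00032) with BAQ12, 1.54 (SE 0.21, adjusted p = 0.00014) with BAQ13 and 1.27 (SE 0.21, adjusted p = 0.0033) with BAQ12O, the last being the largest increase of any mitochondrial gene with BAQ12O. Its value with BAQ12 was 1.25 (adjusted p = 4e-08) without BAQ12 replicate 3.

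MT-TV stood at 275, 228 and 222 in the vehicle libraries, 646, 715 and 776 with Lys05, 603, 684 and 1166 with BAQ12, 728, 532 and 412 with BAQ13 and 527, 599 and 556 with BAQ12O. BAQ12 replicate 3 was again highest, and no treated library reached down to vehicle. The log2 fold changes were 1.56, 1.70, 1.17 and 1.22 (each SE 0.20; adjusted p = 0.0004, 8.4e-05, 0.0015 and 0.0033). MT-TL1 stood at 6265, 6442 and 6189.6 in the vehicle libraries, 8513, 9302 and 9344 with Lys05, 8049, 8870.0 and 13875 with BAQ12, 13484, 10467 and 8539 with BAQ13 and 12582, 13350.4 and 13554 with BAQ12O. It was highest with BAQ12O, 1.06 (SE 0.16, adjusted p = 0.0016), followed by BAQ13, 0.76 (SE 0.16, adjusted p = 0.0081), whereas Lys05 gave 0.52 (SE 0.16, adjusted p = 0.51) and BAQ12 0.66 (SE 0.16, adjusted p = 0.066). It passed also with Lys05 (adjusted p = 0.0016) and BAQ12 (0.42, adjusted p = 0.027) when BAQ12 replicate 3 was left out.

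**Figure D3:**
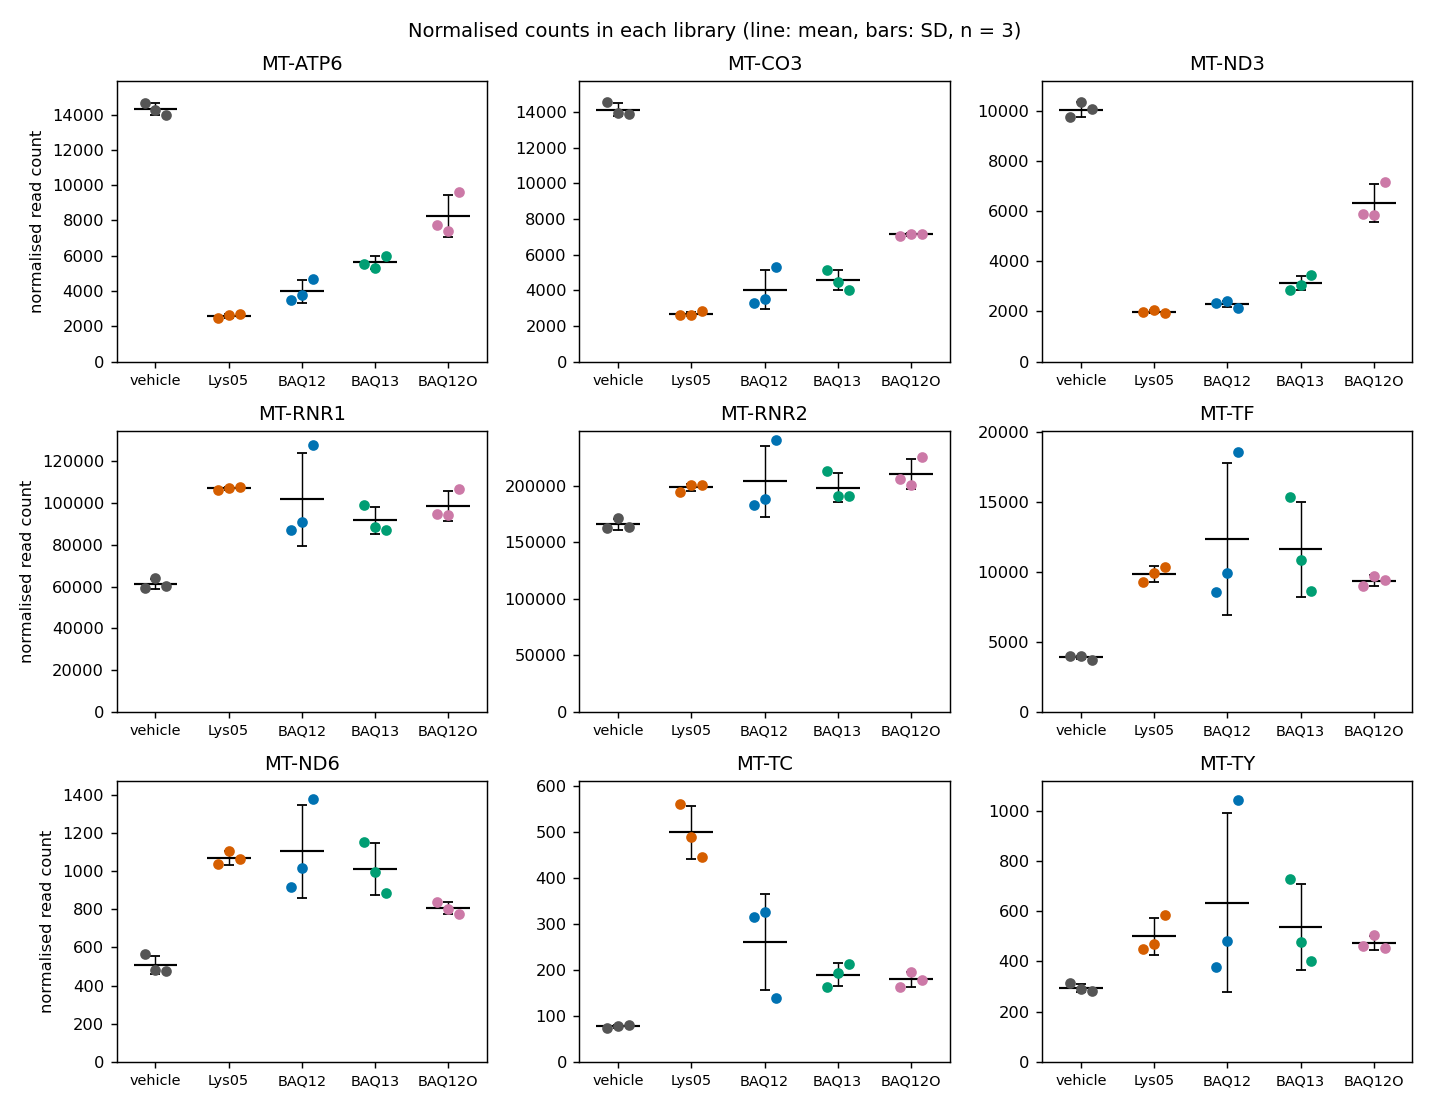
Normalised read counts of 9 mitochondrial genes in each library by group (points, n = 3), with the group mean (line) and SD (bars) and axes from 0. The top row are plus-strand mRNAs, lower in every treated library than in vehicle, and the middle row lies higher in every treated library, as do the minus-strand genes of the bottom row.

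On the minus strand, 8 of 9 genes were tested, and MT-ND6 and MT-TC passed with all 4 agents. MT-ND6 encodes a membrane subunit of complex I and is the only mRNA of that strand. It stood at 563, 481 and 476 in the vehicle libraries, 1037, 1106 and 1064 with Lys05, 915, 1018 and 1379 with BAQ12, 1154, 997 and 884 with BAQ13 and 841, 804 and 775 with BAQ12O. Every treated library was above every vehicle library, while the 6 plus-strand mRNAs of the same complex were below. The log2 fold change was 1.08 (SE 0.13, adjusted p = 8.5e-05) with Lys05, 1.10 (SE 0.13, adjusted p = 5.1e-05) with BAQ12, 0.99 (SE 0.13, adjusted p = 5.6e-05) with BAQ13 and 0.67 (SE 0.13, adjusted p = 0.0083) with BAQ12O. The last lost the threshold without vehicle replicate 2 (adjusted p = 0.057) or 3 (0.062). MT-ND6 and MT-ND5 face each other across adjoining ends on opposite strands, and MT-ND6 reads per MT-ND5 read were 0.046 with vehicle, 0.362 with Lys05, 0.282 with BAQ12, 0.219 with BAQ13 and 0.101 with BAQ12O (group means).

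MT-TC had the largest change of any mitochondrial gene with Lys05. It stood at 73.1, 78.2 and 79.9 in the vehicle libraries, 562, 489 and 447 with Lys05, 316, 326 and 139 with BAQ12, 163, 193 and 214 with BAQ13 and 164, 195 and 179 with BAQ12O. The Lys05 libraries were above all others, and BAQ12 replicate 3 lay below its replicates and below BAQ13. As means, MT-TC was 6.49-fold the vehicle level with Lys05, 3.39-fold with BAQ12, 2.47-fold with BAQ13 and 2.33-fold with BAQ12O. The log2 fold change was 2.68 (SE 0.22, adjusted p = 8e-07), 1.65 (SE 0.22, adjusted p = 0.00038), 1.28 (SE 0.22, adjusted p = 0.0015) and 1.21 (SE 0.22, adjusted p = 0.0083) in that order. Its value with BAQ12 was 2.05 without BAQ12 replicate 3 (adjusted p = 2.1e-13), with only the 6 libraries compared BAQ12 did not pass (adjusted p = 0.10), and without BAQ12O replicate 2 BAQ12O did not (adjusted p = 0.056).

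MT-TY, the neighbour read just before MT-TC, stood at 312, 289 and 283 in the vehicle libraries, 448, 469 and 583 with Lys05, 377, 483 and 1041 with BAQ12, 729, 478 and 399.8 with BAQ13 and 462, 504 and 452 with BAQ12O. All treated libraries were above vehicle, but no agent passed the test, with log2 fold changes of 0.75, 0.96, 0.81 and 0.68 and adjusted p = 0.74, 0.12, 0.081 and 0.26. MT-TC reads per MT-TY read ranged from 0.234 to 0.282 with vehicle, 0.766 to 1.25 with Lys05, 0.134 to 0.839 with BAQ12, 0.224 to 0.535 with BAQ13 and 0.354 to 0.396 with BAQ12O. With Lys05 and BAQ12O the ratio did not overlap vehicle, and with BAQ12 and BAQ13 the library that stood apart was below it. MT-TY passed with all 4 agents without BAQ12 replicate 3 and BAQ13 replicate 1, at log2 fold changes of 0.75, 0.53, 0.57 and 0.68.

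MT-TS1 stood at 16.6, 19 and 25.7 in the vehicle libraries, 63.9, 89.6 and 57.9 with Lys05, 55.9, 61.2 and 27.6 with BAQ12, 35.5, 29.2 and 42.7 with BAQ13 and 41, 31.5 and 46.9 with BAQ12O, which is low but above the floor of 3 reads. It passed with Lys05, 1.73 (SE 0.27, adjusted p = 0.0042), and missed the threshold without Lys05 replicate 2 (adjusted p = 0.054). With the other agents it was higher than vehicle in every library, at 1.14 (SE 0.27, adjusted p = 0.059), 0.79 (SE 0.27, adjusted p = 0.11) and 0.93 (SE 0.27, adjusted p = 0.11). MT-TP, the most abundant minus-strand tRNA, had log2 fold changes of -0.10, 0.01, -0.19 and 0.31 and did not pass with any agent. Counts of MT-TQ, MT-TA and MT-TE were at most 20 reads in any library, and none of these passed with all 15 libraries. MT-TQ and MT-TA overlapped vehicle with every agent. MT-TE stood at 5.58 to 6.43 with vehicle and higher in every library with Lys05 (8.52 to 12.5), BAQ12 (10.1 to 18.8) and BAQ13 (10.9 to 16.8). Such separation was seen for 8.24%, 7.75% and 14.5% of all genes. With BAQ12O it overlapped vehicle (4.14 to 11.9). At this depth the size of any change is uncertain.

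The plus-strand tRNAs lying between the mRNAs were a mixed set. Of 8 that were tested, MT-TI was lower with Lys05, BAQ12 and BAQ13, and MT-TS2 and MT-TL2 were lower with BAQ13. MT-TI, next to MT-ND1, stood at 104, 129.5 and 106 in the vehicle libraries, 51.1, 63.5 and 50.4 with Lys05, 66, 52.7 and 41.5 with BAQ12, 42.9, 71.1 and 73.8 with BAQ13 and 142, 133 and 119 with BAQ12O. It was lower than vehicle in every library given Lys05, BAQ12 or BAQ13, and not so with BAQ12O. The log2 fold change was -1.03 (SE 0.20, adjusted p = 0.037) with Lys05, -1.08 (SE 0.20, adjusted p = 0.0089) with BAQ12, -0.87 (SE 0.20, adjusted p = 0.014) with BAQ13 and 0.22 (SE 0.20, adjusted p = 0.71) with BAQ12O. The call with Lys05 was lost on leaving out any of the 6 libraries compared (adjusted p = 0.062 to 0.31), those with BAQ12 and BAQ13 without vehicle replicate 2 (0.081 and 0.083), and that with BAQ13 also without BAQ13 replicate 1 (0.073).

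MT-TS2 and MT-TL2 lie together between MT-ND4 and MT-ND5. With BAQ13 their log2 fold changes were -1.17 (SE 0.27, adjusted p = 0.015) and -0.68 (SE 0.18, adjusted p = 0.033), and leaving out single libraries ended the calls in 4 and 5 of 6 cases (adjusted p = 0.056 to 0.076 and 0.089 to 0.15). MT-TS2 stood at 351, 354 and 320.4 with vehicle, 164, 149 and 175 with Lys05, 124, 163 and 325 with BAQ12 and 234, 140.4 and 106 with BAQ13. BAQ12 replicate 3 and BAQ13 replicate 1 were the highest of their groups, and without both MT-TS2 was lower with Lys05 (-1.07, adjusted p = 9.6e-12), BAQ12 (-1.26, adjusted p = 1.2e-12) and BAQ13 (-1.48, adjusted p = 1.7e-15).

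Over the 8 tRNAs of this region the log2 fold changes ran from -1.07 (MT-TS2) to 0.33 (MT-TT) with Lys05, from -1.08 (MT-TI) to 0.63 (MT-TG) with BAQ12, from -1.17 (MT-TS2) to 0.57 (MT-TT) with BAQ13 and from -0.25 (MT-TH) to 0.60 (MT-TT) with BAQ12O. With BAQ12O and all 15 libraries, 0 of 8 passed by limma, edgeR or DESeq2, and 1 of 8 had an unadjusted p under 0.05 by each. MT-TT, which follows MT-CYB, had positive values with all 4 agents and passed with none of them in these fits. With BAQ12O it passed with only the 6 libraries compared (adjusted p = 1.2e-05) and without BAQ12 replicate 3 (0.020). MT-TM, before MT-ND2, stood at 300.04 to 908 normalised counts over all libraries, with log2 fold changes of -0.20, -0.21, -0.59 and 0.05.

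**Figure D4:**
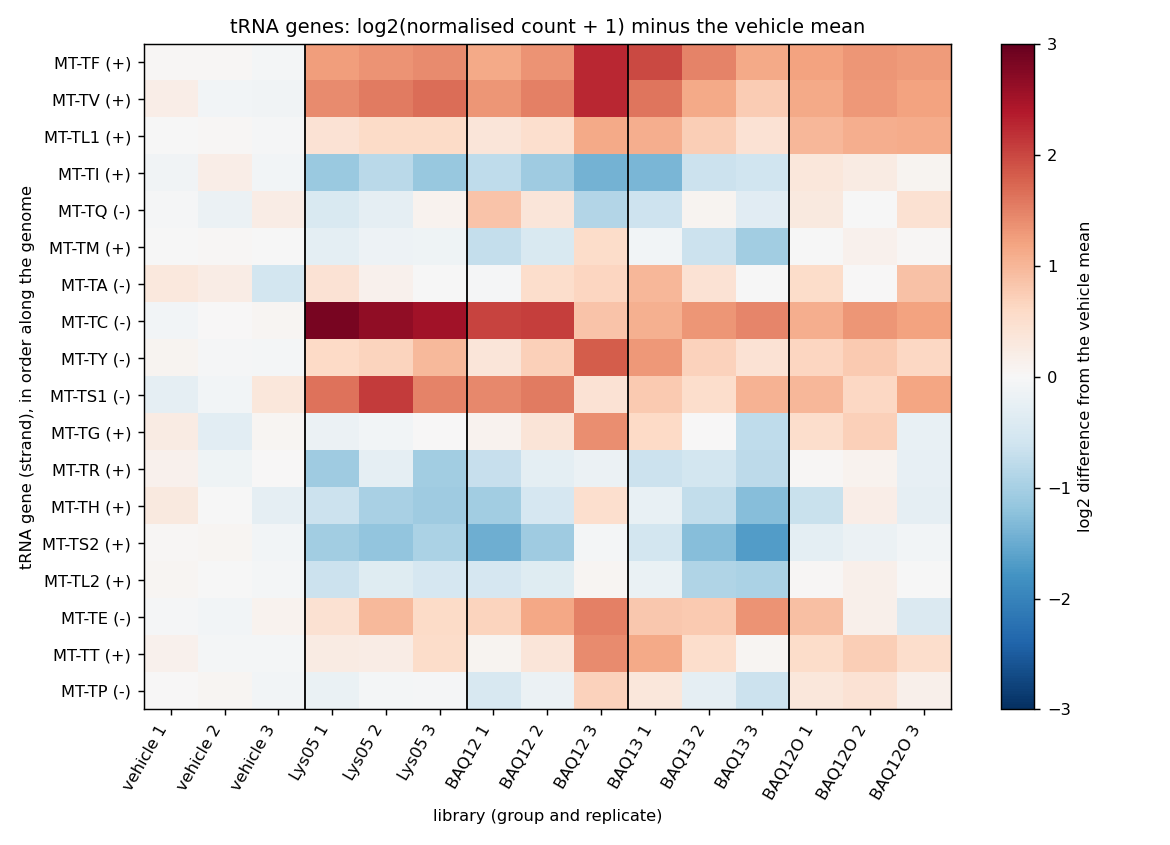
Heat map of the 18 tRNA genes tested (rows, with the strand, in order along the genome) in the 15 libraries (columns). Colour gives log2(normalised count + 1) minus the vehicle mean, red for higher and blue for lower. MT-TF, MT-TV, MT-TL1 and MT-TC are red in every treated library, and MT-TI is blue with Lys05, BAQ12 and BAQ13; BAQ12 replicate 3 and BAQ13 replicate 1 differ from their replicates in many rows.

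The make-up of the mitochondrial reads changed with each agent. Their share of the library was 17.4% to 18.1% with vehicle, 16.9% to 17.4% with Lys05, 15.8% to 20.6% with BAQ12, 16.5% to 18.7% with BAQ13 and 19.0% to 20.4% with BAQ12O. The 12 plus-strand mRNAs took 33.6% to 34.7% of mitochondrial reads with vehicle, 7.57% to 7.82% with Lys05, 10.02% to 10.6% with BAQ12, 12.8% to 13.2% with BAQ13 and 18.9% to 19.4% with BAQ12O. No 2 groups overlapped, and BAQ12 replicate 3 and BAQ13 replicate 1 stayed with their groups in this share. The rRNAs took 61.2% to 62.5% with vehicle, 85.1% to 85.8% with Lys05, 80.9% to 83.0% with BAQ12, 78.4% to 80.7% with BAQ13 and 73.7% to 74.3% with BAQ12O. These are shares of 1 total, so that a fall of 1 class raises the others, and no test was made on them.

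As sums of normalised counts, which do not have that property, the 12 mRNAs stood at 122324 to 126383 with vehicle and at 26539 to 28339 with Lys05. The tRNAs together took 3.78% to 3.92% of mitochondrial reads with vehicle, 6.30% to 6.77% with Lys05, 6.20% to 8.74% with BAQ12, 5.84% to 8.57% with BAQ13 and 6.20% to 7.13% with BAQ12O, mostly through MT-TF and MT-TL1. There were 0.370 MT-RNR1 reads per MT-RNR2 read with vehicle, 0.540 with Lys05, 0.497 with BAQ12, 0.463 with BAQ13 and 0.468 with BAQ12O (group means). The ratio in each treated library was above all 3 vehicle libraries.

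**Figure D5:**
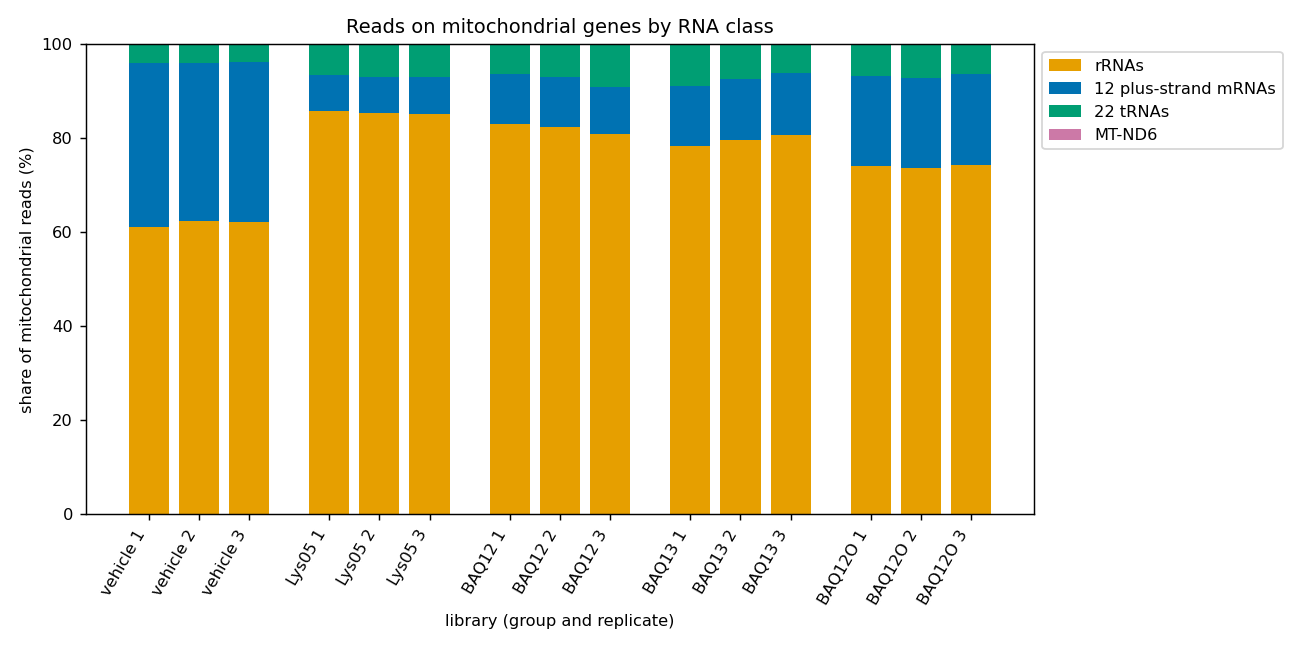
Share of reads on mitochondrial genes (vertical axis, percent) taken by the 2 rRNAs, the 12 plus-strand mRNAs, the 22 tRNAs and MT-ND6 in each of the 15 libraries (bars). The mRNA share is widest in the vehicle libraries at 33.6% to 34.7% and narrowest with Lys05 at 7.57% to 7.82%; MT-ND6, below 0.4% throughout, is too thin to see.

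Levels per length, in normalised counts per kilobase in vehicle cells, were highest for MT-RNR2 at 106322, followed by MT-ATP8 at 99345, MT-TL1 at 83984, MT-RNR1 at 64265 and MT-TF at 54589. Among the other mRNAs MT-ND3 stood at 29013 and MT-ATP6 at 21017, and MT-ND6 was lowest of the 13 at 965. The library kit differs between the labels (a 3′ kit) and the methods (a stranded kit), and with a 3′ kit counts do not scale with length, so this order holds only for reads per length.

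The agents were also compared directly, at the same dose and time, in 6 comparisons with p-values adjusted over all genes within each. The 12 mRNAs had their means in the order Lys05, BAQ12, BAQ13, BAQ12O and vehicle in 12 of 12 genes. Between the neighbours Lys05 and BAQ12 the median difference was 0.47 on the log2 scale (range 0.10 to 0.63), and 4 of 12 passed, MT-CO1, MT-ND2, MT-ATP6 and MT-ND1, each higher with BAQ12. Over all genes, 0.133% were higher in that comparison. MT-CO1 differed by 0.55 (SE 0.07, adjusted p = 0.0016), and MT-ND3 by 0.21 (SE 0.09, adjusted p = 0.65) with a 95% interval of 0.03 to 0.39. The calls of MT-ND2, MT-ATP6 and MT-ND1 were lost without any of Lys05 replicates 1, 2 and 3 (adjusted p = 0.088 to 0.18). With only the 6 libraries compared 0 of 33 passed by limma (13 at an unadjusted p under 0.05, beside 378 of all 10495 genes). With all 15 libraries, edgeR called 4 and DESeq2 9, of 17 and 26 genes called in all. On leaving out BAQ12 replicate 3 and BAQ13 replicate 1, 11 members were higher and 3 lower with BAQ12 than with Lys05, against 0.343% and 0.172% of all genes.

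With all 15 libraries, the median difference over the mRNAs was smallest between BAQ12 and BAQ13, which differ by a methylene unit. The median difference was 0.31 on the log2 scale (range 0.08 to 0.51), and 2 of 12 passed, both higher with BAQ13, against 0.505% of all genes. MT-ATP6 was higher with BAQ13 by 0.51 (SE 0.10, adjusted p = 0.031) and MT-ND3 by 0.45 (SE 0.09, adjusted p = 0.017). Both calls were lost without BAQ13 replicate 2 (adjusted p = 0.084 and 0.081) or 3 (0.17 and 0.13), and that of MT-ATP6 also without BAQ12 replicate 1 (0.13) or 2 (0.14) or BAQ13 replicate 1 (0.083). For MT-CO1, the interval of the difference was -0.07 to 0.23, and for MT-CO2 it was 0.05 to 0.86. Without BAQ12 replicate 3 and BAQ13 replicate 1, 11 mRNAs were higher with BAQ13 and MT-TC and MT-TV lower, against 1.46% and 0.819% of all genes. These 13 calls stood beside 14 between BAQ12 and Lys05 in the same fit, of 239 and 54 genes called in all. The ranking of the pairs of agents therefore rests on the libraries kept.

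Between BAQ13 and Lys05, 11 of 12 mRNAs were higher with BAQ13 (median 0.76, range 0.56 to 1.11), and MT-CO2 did not pass (interval 0.15 to 0.97, adjusted p = 0.16). Over all genes, 1.88% were higher with BAQ13. BAQ12O differed most. All 12 mRNAs were higher with BAQ12O than with Lys05 (median 1.56, range 1.18 to 1.80; 0.219% of all genes) and than with BAQ12 (median 1.07, range 0.75 to 1.46; 0.200%), and 11 of 12 were higher than with BAQ13 (median 0.78, range 0.55 to 1.01; 0.467%). The exception was MT-CO2, with an interval of 0.22 to 1.03. MT-ND3 was higher with BAQ12O than with BAQ12 by 1.46 (SE 0.09, adjusted p = 3.9e-08), the largest of these differences to BAQ12. Between BAQ12O and BAQ13, MT-CO3 lost its call on leaving out 5 of the 6 libraries (adjusted p = 0.055 to 0.082), MT-ATP6 without BAQ13 replicate 2 (0.080) or BAQ12O replicate 3 (0.070), and MT-CYB without either of these (0.0502 and 0.051).

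MT-CO2 lost its call between BAQ12O and BAQ12 without any 1 of the 3 BAQ12O libraries (adjusted p = 0.069 to 0.15), and that between BAQ12O and Lys05 without Lys05 replicate 2 (0.059) or BAQ12O replicate 1 (0.058). MT-TI was higher with BAQ12O than with each other agent, by 1.24 against Lys05, 1.30 against BAQ12 and 1.09 against BAQ13 (SE 0.20; adjusted p = 0.0052, 0.004 and 0.007), the first of which was lost without BAQ12O replicate 1 (0.051).

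Among the genes that rose against vehicle, MT-TC alone passed between agents by limma with all 15 libraries. Between BAQ13 and Lys05, edgeR and DESeq2 each called 2 members lower with BAQ13, where limma called 1. Over all genes, 1.00%, 0.791% and 0.781% were lower by edgeR, DESeq2 and limma. By limma, MT-ND6, MT-RNR1, MT-RNR2, MT-TV, MT-TL1 and MT-TS1 each passed in some comparison without BAQ12 replicate 3 and BAQ13 replicate 1. In that fit 54 to 631 of 10495 genes were called in the direct comparisons. MT-TC was lower with BAQ13 than with Lys05 at -1.39 (SE 0.22, adjusted p = 0.0013), as were 0.781% of all genes, and lower with BAQ12O than with Lys05 at -1.47 (SE 0.22, adjusted p = 0.003), as were 0.0286%, whereas the difference between BAQ12 and Lys05 was -1.03 (SE 0.22, adjusted p = 0.12). For MT-ND6 the interval was -0.24 to 0.29 between BAQ12 and Lys05 and -0.67 to -0.14 between BAQ12O and Lys05 (adjusted p = 0.38). For MT-RNR1 it was -0.34 to 0.14, -0.47 to 0.01 and -0.36 to 0.12 for BAQ12, BAQ13 and BAQ12O against Lys05. In all 6 comparisons with all 15 libraries, 0 of the 5 genes of the rRNA end passed by limma, edgeR or DESeq2, and at most 2 had an unadjusted p under 0.05. With only the 6 libraries compared, limma called 2 of 5 between BAQ12O and Lys05, MT-TL1 higher (0.54, adjusted p = 1e-11) and MT-TV lower (-0.34, adjusted p = 0.0027) with BAQ12O. MT-RNR1 was, without BAQ12 replicate 3 and BAQ13 replicate 1, lower with BAQ12 (-0.27, adjusted p = 0.001) and with BAQ13 (-0.29, adjusted p = 5.6e-05) than with Lys05, and MT-TC was lower with BAQ12 than with Lys05 (-0.63, adjusted p = 8.2e-05).

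Nuclear genes serve the mitochondrial genome as its polymerase and transcription factors (POLRMT, TFAM, TEFM), tRNA-end nucleases (ELAC2, PRORP), RNA-stabilising proteins (LRPPRC, SLIRP) and replication enzymes (POLG, TWNK). Of 40 such genes listed, 39 were tested. With all 15 libraries, 0 of 39 passed with Lys05 by limma, edgeR or DESeq2, and 0 had an unadjusted p under 0.05. With BAQ12 and BAQ12O, 0 passed by any of the 3 tools. By limma 7 and 3 had an unadjusted p under 0.05, as had 1239 and 1339 of all 10495 genes. With BAQ13, 8 had an unadjusted p under 0.05 by limma, as had 2041 of all 10495 genes. DNA2, a nuclease and helicase of replication, was lower with BAQ13 (-1.13, SE 0.32, adjusted p = 0.049), with 1 call by edgeR and 0 by DESeq2. This 1 of 39 is near the 2.19% of all genes that were lower, and the call was lost with no filter (adjusted p = 0.11), with the replicate block (0.075) and on leaving out any vehicle library (0.055 to 0.19) or BAQ13 replicate 2 or 3 (0.19 and 0.13). Other fits called more of the list. With only the 6 libraries compared, limma called 2 with BAQ13 (DNA2 and SLIRP), both lower, where 3.79% of all genes were lower. It called 5 with BAQ12O (TFAM, SLIRP, PNPT1, FASTKD5 and REXO2), each lower by 0.23 to 0.40, where 4.24% of all genes were lower. Leaving out BAQ12 replicate 3 and BAQ13 replicate 1, 0.905%, 5.50% and 4.75% of all genes were lower with BAQ12, BAQ13 and BAQ12O. Of the list, 0 then passed with Lys05, 1 with BAQ12 (FASTK), 6 with BAQ13 and the same 5 with BAQ12O, all lower. These genes are named because they were called there, after their values were seen. The medians of the list were -0.08, -0.18, -0.20 and -0.15 for Lys05, BAQ12, BAQ13 and BAQ12O. PNPT1, an exonuclease of mitochondrial RNA, had -0.38 with BAQ12, -0.28 with BAQ13 and -0.38 with BAQ12O (SE 0.11; adjusted p = 0.15, 0.17 and 0.11).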

How the data were processed

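RNA from 15 libraries of MIA PaCa-2 cells (5 groups of 3) was sequenced. The authors deposited, for each library, a signal value per gene, which is the gene's read count divided by a size factor; every value was a whole multiple of the worth of 1 read (tolerance 0.001), so whole reads were recovered. The size factors matched medians of ratios over 11705 genes. The submitters' processing notes name STAR, HTSeq, DESeq2 and GRCh38 (also as hg38) without versions; the strand setting and annotation release are not given in the sources used here. The kit is a 3′ kit in the labels and a stranded kit in the methods, a discrepancy that could not be resolved here. It bears on levels per length, on opposite-strand genes and on which RNA molecules gave the reads of a gene.

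Genes were kept by edgeR filterByExpr (minimum count 10, minimum total 15, by group), which left 10495. limma (empirical Bayes with a variance trend) was run on log2(value + 1) over all 15 libraries, with Benjamini-Hochberg adjustment over the genes of each comparison and calls at an adjusted p under 0.05, two-sided. Intervals are 95% intervals of the limma fit. Fold changes are on the log2(value + 1) scale, which understates changes of low genes. edgeR's quasi-likelihood test and DESeq2 on the recovered reads were alternatives, as were other pseudocounts, filters, scalings, a replicate block, the compared libraries alone, and leaving out libraries. The fit was also run on simulated data in which no library stood apart, so that run does not bear on the effect of BAQ12 replicate 3. Positions and sequences come from GENCODE 29 (GRCh38), in which 56531 of 60107 gene IDs and all 37 members were found. Tools were Python 3.11.15 with pandas 2.3.3, DESeq2 1.42.0, edgeR 4.0.16 and limma 3.58.1 in R 4.3.3. Sums, shares and ratios over classes were given per library with no test. Values per library are given for MT-ATP6, MT-ND6, MT-TC, both rRNAs and the 5 called members with the largest change in each comparison with vehicle; values of the other members named (MT-TY, MT-TS1, MT-TI and MT-TS2 in most or all groups) were added after they were seen. The members and lists were chosen with earlier results of these data known. Counting error alone gives a floor of 3 reads.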

Additional observations from a re-analysis of the deposited data

How the results depend on the processing

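The 14 counts of called members kept within 1.5 times their value under most alternatives. The 134 single results for genes were those called with all 15 libraries by limma, plus MT-RNR2 against vehicle. None changed direction, but they were chosen mostly for having passed and the fits share most libraries, so this was largely fixed beforehand. The threshold was lost in 85 refits, gained in 10 and kept or still missed in 2412. All refits that gained it were of MT-RNR2, with Lys05, BAQ13 or BAQ12O. Outside the single left-out libraries, other counts were as follows. With no filter, BAQ12 against Lys05 gave 2 in place of 4 and BAQ13 against BAQ12 gave 0 in place of 2, of 11 and 42 genes called in all. In the latter comparison 12 members had an unadjusted p under 0.05 by limma, and edgeR and DESeq2, run with the filter only, called 2 and 3, of 72 and 77 genes called in all. With only the 6 libraries compared, BAQ12 had 3 members higher than vehicle in place of 5 and BAQ12O 11 in place of 6, where 0.143% and 4.06% of all genes were higher. The direct comparisons gave 0 for BAQ12 against Lys05 and 0 for BAQ13 against BAQ12. At an unadjusted p under 0.05 by limma there were 13 and 5, beside 378 and 460 of all 10495 genes. They gave 23 for BAQ12O against Lys05 in place of 14 and 7 for BAQ12O against BAQ12 in place of 13, of 223 and 8 genes called in all. DESeq2 called 8 higher with BAQ12, where 0.619% of all genes were higher, and 9 for BAQ12 against Lys05, of 26 genes called in all. Without BAQ12 replicate 3, also where BAQ12 is not compared, 10 members were higher with BAQ13 in place of 6 and 10 with BAQ12O in place of 6. Over all genes, those higher rose as well, from 3.58% to 7.26% with BAQ13 and from 0.934% to 2.69% with BAQ12O. Leaving out BAQ12 replicate 3 and BAQ13 replicate 1 together, chosen after seeing the data, gave 8 higher with BAQ12, 11 higher with BAQ12O, and 14, 19, 22, 13, 20 and 19 calls for BAQ12 against Lys05, BAQ13 against Lys05, BAQ12O against Lys05, BAQ13 against BAQ12, BAQ12O against BAQ12 and BAQ12O against BAQ13, of 54, 631, 261, 239, 288 and 534 genes called in all; the cause was not tested. Single left-out libraries gave 5 to 9 higher and 12 to 14 lower with Lys05, 5 to 7 higher and 12 to 15 lower with BAQ12, 6 to 10 higher and 12 to 18 lower with BAQ13, 5 to 10 higher and 8 to 12 lower with BAQ12O, and 1 to 8 for BAQ12 against Lys05, 12 to 15 for BAQ13 against Lys05, 12 to 17 for BAQ12O against Lys05, 0 to 11 for BAQ13 against BAQ12, 12 to 18 for BAQ12O against BAQ12 and 9 to 18 for BAQ12O against BAQ13. Calls over all genes moved with the library left out too, those higher with BAQ13 from 2.04% without vehicle replicate 3 to 7.26% without BAQ12 replicate 3. Genes called in all ran from 19 to 51 with Lys05 and from 56 to 137 with BAQ12. They ran from 320 to 1441 with BAQ13 and from 75 to 524 with BAQ12O. For BAQ12, BAQ13 and BAQ12O against Lys05 they ran from 8 to 26, 154 to 814 and 20 to 83. For BAQ13 and BAQ12O against BAQ12 they ran from 32 to 332 and 14 to 54, and for BAQ12O against BAQ13 from 72 to 387. Each highest count was without BAQ12 replicate 3. The replicate numbers did not pair the libraries: correlations of deviations between libraries with the same number ran from -0.49 to 0.20, and 4 of 15 libraries correlated best with their own number. With the replicate block, 6 members were higher and 12 lower with Lys05 (0.0572% and 0.143% of all genes) and 5 and 13 with BAQ12 (0.438% and 0.295%). There were 6 and 14 with BAQ13 (3.11% and 1.77%) and 6 and 9 with BAQ12O (0.724% and 0.410%). In the direct comparisons 4, 12, 14, 2, 12 and 12 were called, of 16, 199, 21, 48, 16 and 103 genes called in all. MT-TI with Lys05, MT-TL2 with BAQ13 and MT-CO2 between BAQ12O and BAQ12 then missed the threshold (adjusted p = 0.067, 0.062 and 0.051). TMM, upper-quartile and nuclear-total scaling shifted the median of all genes by at most 0.03.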
